A study of Mus musculus with 18 samples.

Results

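The 38 genes described here are Wnt ligands, their receptors and the proteins that carry or damp the Wnt signal, taken by gene symbol from 35976 symbols counted in 4T1 cells. They comprise 10 Wnt ligands, the secretion enzyme Porcn, 11 receptors and coreceptors, 4 transducers, 4 members of the destruction complex, 4 TCF/LEF factors and 4 inhibitors. All 38 symbols were listed in every library, and 31 were abundant enough to be tested. 4T1 cells grow from a mammary carcinoma of a BALB/c mouse and are labelled as triple-negative breast cancer cells. Cells carried a hairpin against Dap5 (shDap5) or a non-silencing hairpin (NSi), and both arms received 2 µg/ml doxycycline for 6 days. Polyadenylated RNA was sequenced from an input sample and from sucrose gradient fractions combined as light or heavy polysomes. The 6 groups were shDap5 input, NSi input, shDap5 light, NSi light, shDap5 heavy and NSi heavy, each with 3 of the 18 libraries. The labels name no separate clones for a hairpin and no cells without doxycycline, so a difference that predates induction and a response to the hairpin cannot be told apart.

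Wnt proteins are secreted lipid-modified ligands. In the canonical branch a Wnt binds a Frizzled receptor together with LRP5 or LRP6, Dishevelled is recruited, and the destruction complex of APC, axin and GSK3 no longer marks β-catenin for degradation; β-catenin then joins TCF/LEF factors on DNA. Other branches run through Frizzled without β-catenin and bear on cell polarity and migration. In the mammary gland the pathway is known for its part in ductal growth and stem cell maintenance, and overexpression of some ligands causes mammary tumours in mice.

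Total counts ran from 30385863 to 71331978 per library. Levels are CPM scaled between libraries by TMM, so a value in a gradient fraction is relative to the other mRNAs of that fraction and not an amount per cell. A count of 0 allowed up to 3 counts, or 0.0394 to 0.110 CPM depending on the library, which covers counting error only. Eif4g2, the gene of DAP5 and thus the hairpin's target, stood at 592, 340 and 671 CPM in shDap5 inputs, against 799, 760 and 852 CPM in NSi inputs. In the light fractions it stood at 429, 311 and 274 CPM in shDap5, against 1315, 983 and 769 CPM in NSi, and in the heavy fractions at 358, 277 and 222 CPM in shDap5, against 864, 822 and 660 CPM in NSi. The arms did not overlap in any of the 3 fractions. By edgeR the fall was called in light (log2 -1.60, SE 0.26, adjusted p = 0.00204) and heavy fractions (log2 -1.45, SE 0.26, adjusted p = 0.00349) but not in input (log2 -0.59, SE 0.26, adjusted p = 0.202; adjusted p = 0.00454 with libraries of the same number blocked within a fraction). Markers of the labelled carcinoma cell were abundant: 6 epithelial genes summed to 4200 to 4756 CPM in shDap5 inputs and 2900 to 3240 CPM in NSi inputs. The 6 fibroblast markers summed to 0.526 to 1.08 CPM in shDap5 inputs and 0.81 to 1.42 CPM in NSi inputs, and the 5 endothelial markers to 0.540 to 0.986 CPM and 0.81 to 1.16 CPM. The 5 macrophage markers summed to 22.8 to 31 CPM in shDap5 inputs and 15.2 to 18 CPM in NSi inputs.

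Of the 31 tested members, 5 differed between the arms in at least 1 fraction. The share of all genes called in at least 1 fraction was not counted, so shares are given below for each fraction. The ligands Wnt10b and Wnt11 and the receptor Fzd1 were lower in shDap5 cells. Among the nuclear factors Tcf7 was lower and Tcf7l2 higher. In input 5 members passed the edgeR test, where 6.95% of all 15072 tested genes did; 1 was higher and 4 were lower, against 3.01% and 3.94% of all genes. In light fractions 3 members passed, against 3.47% of all genes, with 1 higher and 2 lower, against 1.83% and 1.64%. In heavy fractions 4 members passed, against 3.95% of all genes, with 1 higher and 3 lower, against 2.03% and 1.92%. Wnt10b, Fzd1 and Tcf7l2 were called in the same direction in all 3 fractions. How many of all genes were called alike in all 3 was not counted. The median log2 change of the 31 members was 0.10 in input, 0.11 in light and 0.03 in heavy fractions, where all genes had medians of 0.05, -0.01 and 0.01. The 3 libraries of each arm did not overlap in input for 6 members above and 7 below NSi, a share near that of all genes, where 20.2% lay above and 16.9% below (37% in all). In light fractions 6 members lay above and 4 below, against 10.2% and 9.64% of all genes (19.9%), and in heavy fractions 2 above and 4 below, against 7.6% and 8.11% (15.7%).

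Some calls were lost with 1 library fewer. In light fractions the call of Fzd1 was lost without NSi light 1, 2 or 3 or shDap5 light 1 or 3 (edgeR adjusted p up to 0.13), and that of Tcf7l2 without NSi light 2 or 3 or any 1 shDap5 light library (adjusted p up to 0.124). Over all 6 leave-outs of a light library the log2 changes ran from -1.36 to -0.92 for Fzd1 and from 0.50 to 0.59 for Tcf7l2. These ranges lie around the values with all libraries. Where the Fzd1 call was lost, its change ran from -1.12 to -0.92. In input the call of Tcf7l2 was lost without NSi input 2 (log2 0.54, edgeR adjusted p = 0.0613). With only the 6 light libraries in the fit Fzd1 and Tcf7l2 were not called (edgeR adjusted p = 0.0751 and 0.152). With only the 6 heavy libraries no member was called, with edgeR adjusted p of 0.0569 for Wnt11, 0.0777 for Fzd1, 0.112 for Wnt10b and 0.171 for Tcf7l2. The library shDap5 input 2 stood apart from the other two for several members, and had the lowest Eif4g2 of the inputs. Without it the Eif4g2 change in input was log2 -0.35 (edgeR adjusted p = 0.419). Without it the falls in input were log2 -2.10 for Wnt10b, -2.39 for Wnt11 and -2.21 for Fzd1, and the input changes of Porcn and Wnt9a turned negative, at -0.41 and -0.35.

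**Figure D1:**
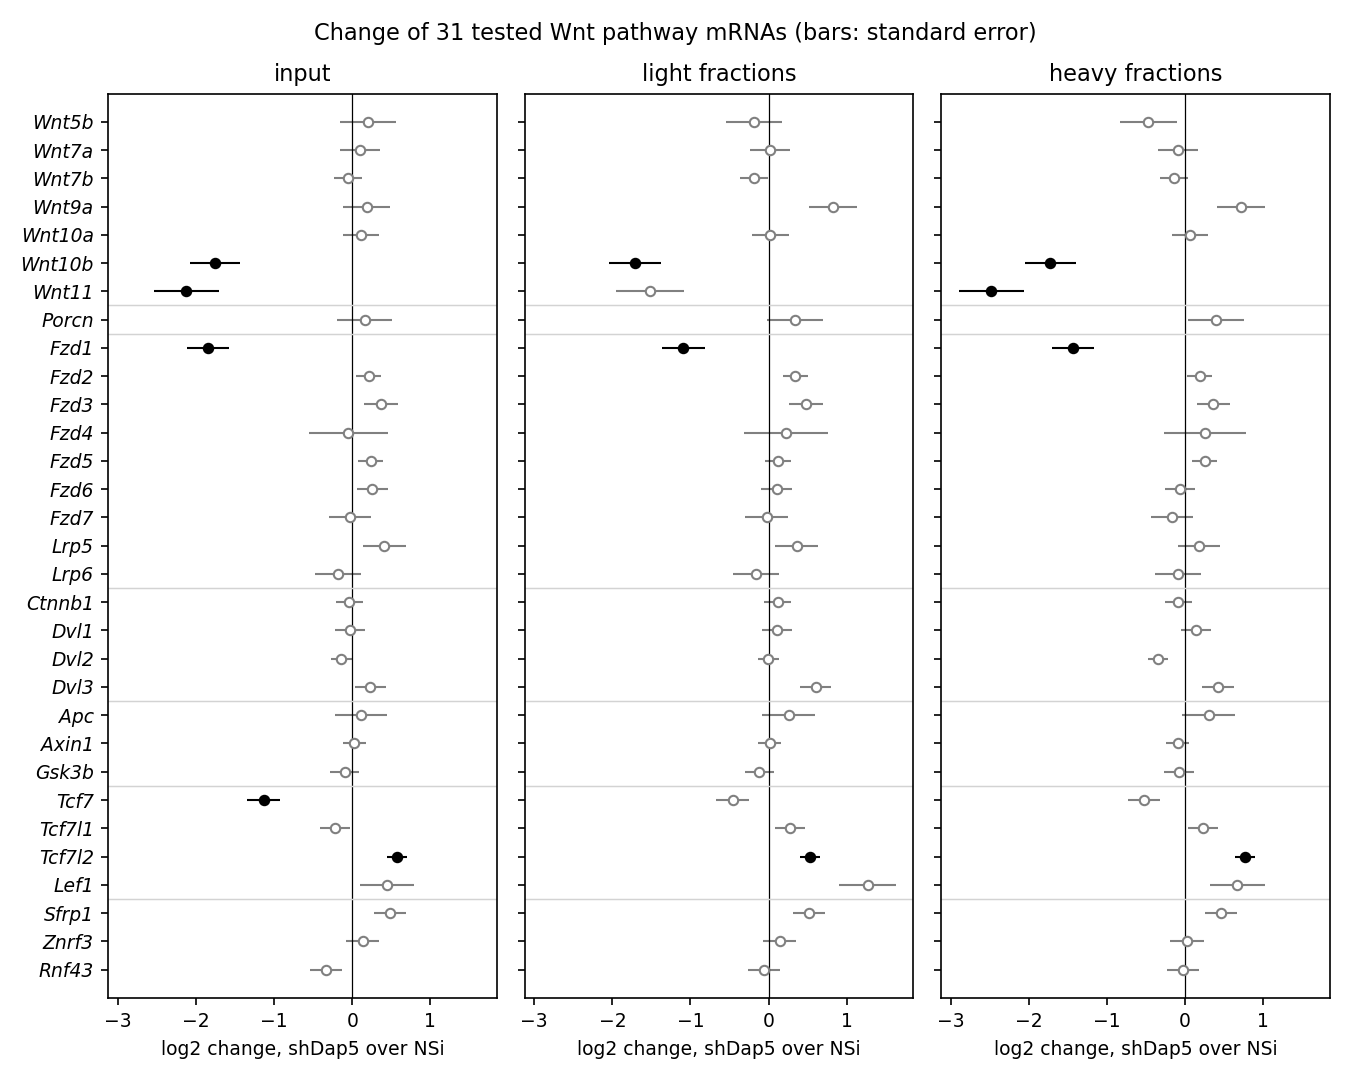
Log2 change of the 31 tested members, shDap5 over NSi, in input, light and heavy fractions, grouped by role from ligands at the top to inhibitors at the bottom; bars are standard errors and filled points have an edgeR adjusted p under 0.05. Filled points are Wnt10b, Wnt11, Fzd1, Tcf7 and Tcf7l2, with values from -2.48 to 0.77.

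The RefSeq promoter windows (build GRCm38.p6) of the 4 members called in 2 or more fractions are shown because they are the sequences in front of the genes that moved. Each line gives the bases before the annotated start, 5′ to 3′ on the gene's strand, and capitals mark the GC box GGGCGG, the TATA box TATAAA or the TCF/LEF core CTTTGAT on either strand, with neighbouring matches run together. The windows lie at chr15:98778207-98778400 (minus strand) for Wnt10b, chr7:98834862-98835083 (plus strand) for Wnt11, chr5:4758217-4758466 (minus strand) for Fzd1 and chr19:55741560-55741796 (plus strand) for Tcf7l2.
Wnt10b: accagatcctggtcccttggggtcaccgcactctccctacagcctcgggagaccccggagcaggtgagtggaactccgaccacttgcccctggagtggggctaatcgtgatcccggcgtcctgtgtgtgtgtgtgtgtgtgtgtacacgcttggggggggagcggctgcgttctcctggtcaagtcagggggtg
Wnt11: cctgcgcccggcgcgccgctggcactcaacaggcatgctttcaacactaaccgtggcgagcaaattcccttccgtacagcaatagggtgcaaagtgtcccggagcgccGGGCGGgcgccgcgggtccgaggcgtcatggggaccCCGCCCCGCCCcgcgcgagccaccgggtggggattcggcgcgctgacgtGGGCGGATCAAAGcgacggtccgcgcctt
Fzd1: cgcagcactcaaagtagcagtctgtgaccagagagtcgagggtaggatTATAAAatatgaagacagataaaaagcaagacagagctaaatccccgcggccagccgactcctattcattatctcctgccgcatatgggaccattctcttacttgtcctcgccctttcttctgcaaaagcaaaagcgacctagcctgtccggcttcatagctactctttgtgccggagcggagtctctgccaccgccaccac
Tcf7l2: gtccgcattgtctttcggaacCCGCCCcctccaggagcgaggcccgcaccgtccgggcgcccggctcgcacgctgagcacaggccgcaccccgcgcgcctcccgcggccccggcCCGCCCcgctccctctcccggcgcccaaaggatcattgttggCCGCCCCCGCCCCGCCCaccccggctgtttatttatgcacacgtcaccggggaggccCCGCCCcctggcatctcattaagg

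The GC content was 63.9% in the Wnt10b window, 70.7% in that of Wnt11, 51.2% in that of Fzd1 and 73.8% in that of Tcf7l2, against a median of 52.4% over all 32851 RefSeq windows of 250 bases. The windows of Wnt11 and Tcf7l2 held 4 and 6 GC boxes, those of Wnt10b and Fzd1 none. The Wnt11 window held the TCF/LEF core once, directly beside a GC box. Of the 38 members 23 were in the promoter table, with 33 windows. The TCF/LEF core (CTTTGAT or its complement ATCAAAG) was in 2 of these 33 windows, those of Wnt11 and Wnt5b, or 6.06%, against 3.2% of all windows. The GC box (GGGCGG or CCGCCC) was in 24 of the 33 member windows, or 72.7%, against 32.7% of all windows. The TATA box (TATAAA or TTTATA) was in 7, or 21.2%, against 12.4% of all windows; Fzd1, Wnt11 and Tcf7l2 each had such a window, with the match outside the bases shown for Wnt11 and Tcf7l2. The CCAAT box (CCAAT or ATTGG) was in 5, or 15.2%, against 33.9% of all windows. Windows of 1 gene can overlap.

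Among the ligands, Wnt7a and Wnt7b made up most of the mRNA. Both are canonical ligands that also act in blood vessels of the brain. Per kilobase of exon, Wnt7a reached 44.3 ± 4.37 and Wnt7b 40.6 ± 4.46 CPM per kb in shDap5 inputs, against 41.2 ± 0.765 and 42.0 ± 4.72 CPM per kb in NSi inputs (SD, n = 3 each); the order of the pair differed between the arms within its spread. Together they held 89.2 ± 4.39% of the summed ligand level per kb in shDap5 inputs and 87.2 ± 1.52% in NSi inputs (SD, n = 3 each). The share was similar on the gradient, at 86.4 ± 1.28% and 88.5 ± 0.667% in shDap5 and NSi light fractions and 90.1 ± 1.21% and 91.3 ± 0.806% in shDap5 and NSi heavy fractions. Neither Wnt7a nor Wnt7b was called in any comparison of the arms; their log2 changes ran from -0.19 to 0.10 with SEs of 0.18 to 0.26. The ligands that fell stood lower. Wnt10b stood at 1.14 ± 0.424 CPM per kb in shDap5 inputs and 3.87 ± 0.431 CPM per kb in NSi inputs, and Wnt11 at 0.0667 ± 0.0218 and 0.295 ± 0.103 CPM per kb (SD, n = 3 each).

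Wnt10b encodes a canonical ligand that is known to drive mammary tumours when overexpressed in mice. Its level was 3.06, 5.55 and 3.04 CPM in shDap5 inputs, against 14.8, 12.8 and 11.9 CPM in NSi inputs. In the light fractions it was 1.43, 1.97 and 2.22 CPM in shDap5, against 5.02, 5.70 and 7.65 CPM in NSi. In the heavy fractions it was 1.04, 1.82 and 2.35 CPM in shDap5, against 4.74, 4.5 and 8.14 CPM in NSi. Every shDap5 library lay below every NSi library of its fraction, and the level in shDap5 was 29.5%, 30.6% and 30% of that in NSi in input, light and heavy fractions. By edgeR the log2 change was -1.76 (SE 0.32, adjusted p = 0.00213) in input, -1.71 (SE 0.33, adjusted p = 0.00719) in light and -1.72 (SE 0.33, adjusted p = 0.00594) in heavy fractions. The changes in heavy fractions and in input differed by 0.04 (SE 0.46).

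Wnt11 encodes a ligand known mainly for noncanonical signalling and cell movement in development. It stood at 0.223, 0.327 and 0.173 CPM in shDap5 inputs, against 0.827, 1.5 and 0.872 CPM in NSi inputs. In light fractions the values were 0.365, 0.342 and 0.239 CPM in shDap5, against 1.37, 0.660 and 0.698 CPM in NSi. In heavy fractions they were 0.276, 0.468 and 0.320 CPM in shDap5, against 2.31, 2.49 and 1.19 CPM in NSi. The arms did not overlap in any fraction, though these levels rest on few counts. The fall was called in input (log2 -2.12, SE 0.41, edgeR adjusted p = 0.00381) and heavy fractions (log2 -2.48, SE 0.42, adjusted p = 0.00238). In light fractions the change of -1.52 (SE 0.43) missed the threshold (edgeR adjusted p = 0.0643; adjusted p = 0.0114 with the block).

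**Figure D2:**
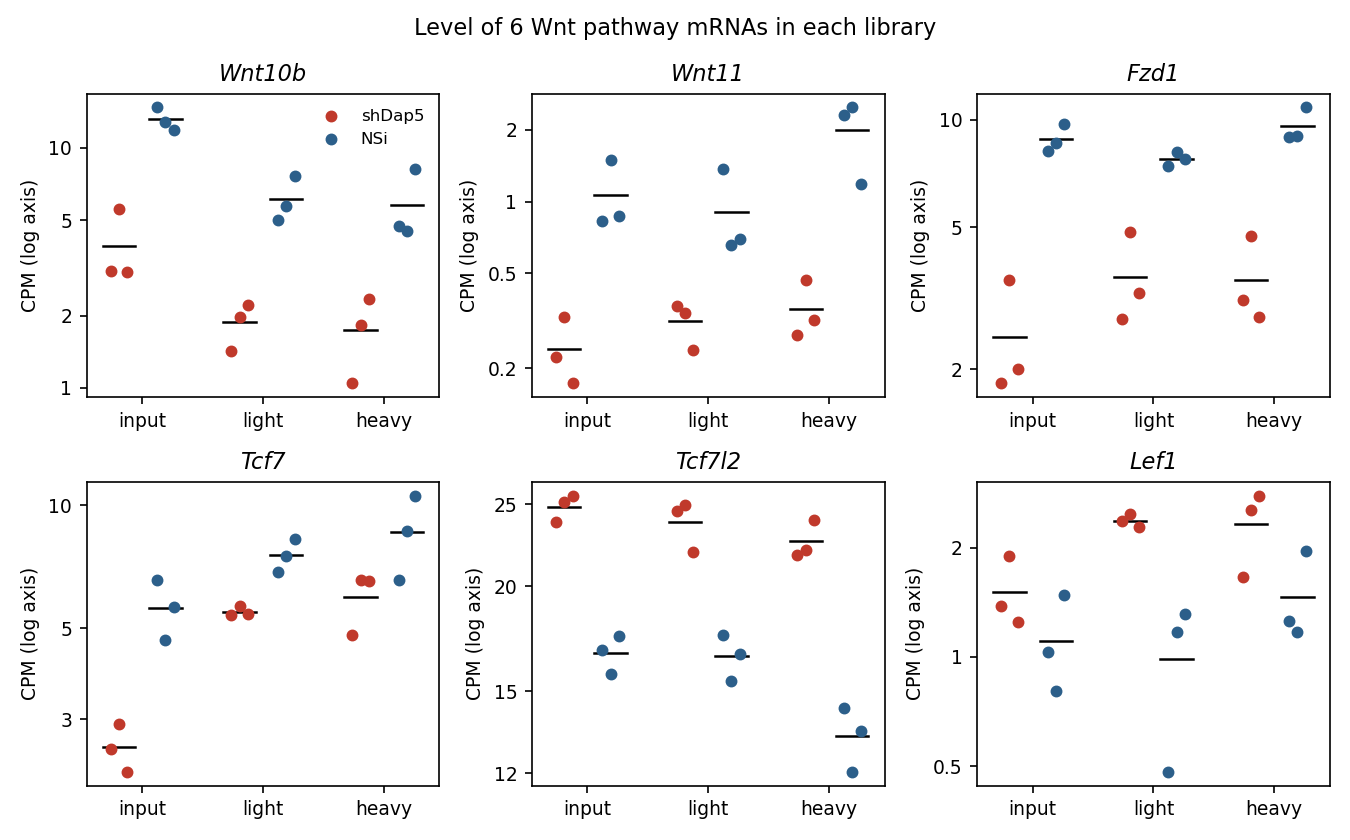
Level of 6 members in each library, as TMM-scaled CPM on a log axis, by gradient fraction; points are the 3 libraries of a group (shDap5 left in red, NSi right in blue) and bars the group means. Wnt10b, Wnt11 and Fzd1 lie lower and Tcf7l2 higher in every shDap5 library of each fraction, whereas the arms overlap for Tcf7 in heavy and for Lef1 in input and heavy fractions.

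The other ligands did not pass the test. Wnt9a, a canonical ligand active in joint formation, stood at 20.4, 39.1 and 22.4 CPM in shDap5 light fractions, against 12.6, 19.0 and 14.6 CPM in NSi light fractions. Its log2 change was 0.83 (SE 0.31, edgeR adjusted p = 0.164) in light, 0.71 (SE 0.31, adjusted p = 0.236) in heavy fractions and 0.19 (SE 0.30, adjusted p = 0.811) in input. With the block it was called in light (log2 0.79, adjusted p = 0.00405) and heavy fractions (log2 0.72, adjusted p = 0.00642). Wnt5b and Wnt10a had log2 changes of -0.47 to 0.20 with SEs of 0.23 to 0.36. Wnt4, Wnt5a and Wnt6 were too low to be tested, with at most 9 counts in any library. Porcn, the enzyme that attaches the lipid to Wnt proteins, was at 4.19, 10.6 and 4.42 CPM in shDap5 inputs, against 5.99, 6.24 and 4.97 CPM in NSi inputs, where 1 shDap5 library stood above and the other two below all NSi libraries. Its log2 change was 0.16 (SE 0.35) in input and 0.34 and 0.40 (SE 0.35 and 0.36) in light and heavy fractions.

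Fzd1 was the receptor that fell. It encodes a Frizzled that can signal through β-catenin. It stood at 1.83, 3.55 and 2.00 CPM in shDap5 inputs, against 8.18, 8.59 and 9.74 CPM in NSi inputs. In light fractions it stood at 2.76, 4.84 and 3.28 CPM in shDap5, against 7.41, 8.10 and 7.73 CPM in NSi. In heavy fractions it stood at 3.13, 4.73 and 2.80 CPM in shDap5, against 8.96, 9 and 10.8 CPM in NSi. No shDap5 library reached the lowest NSi library of its fraction; the shDap5 level was 27.8%, 46.8% and 37.0% of the NSi level in input, light and heavy fractions. By edgeR the log2 change was -1.84 (SE 0.27, adjusted p = 0.000429) in input, -1.09 (SE 0.27, adjusted p = 0.0328) in light and -1.44 (SE 0.27, adjusted p = 0.00563) in heavy fractions.

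The remaining receptors were not called in any fraction. Fzd6, a Frizzled of the polarity branch, led the Frizzleds at 32.8 ± 7.92 CPM per kb in shDap5 inputs and 27.4 ± 5.50 CPM per kb in NSi inputs, ahead of Fzd7 at 10.6 ± 0.694 and 10.8 ± 0.545 CPM per kb (SD, n = 3 each). Fzd1 had rank 7 among the receptors in NSi inputs, at 0.586 ± 0.226 CPM per kb in shDap5 inputs and 2.11 ± 0.193 CPM per kb in NSi inputs. The coreceptor Lrp5 stood at 369, 304 and 391 CPM in shDap5 inputs, against 269, 257 and 274 CPM in NSi inputs, which is 0.41 on the log2 scale (SE 0.28, adjusted p = 0.467 by edgeR). All 3 shDap5 inputs were above the NSi inputs, but the arms overlapped on the gradient. Lrp6 stood at 99.0, 90.9 and 108 CPM in shDap5 inputs, against 118, 97.1 and 124 CPM in NSi inputs, with a log2 change of -0.19 (SE 0.29). Fzd3, a Frizzled of axon guidance, had log2 changes of 0.37 (SE 0.21) in input, 0.48 (SE 0.21, edgeR adjusted p = 0.268; adjusted p = 0.034 with the block) in light and 0.37 (SE 0.22) in heavy fractions. Fzd2, Fzd4, Fzd5, Fzd6 and Fzd7 had log2 changes of -0.17 to 0.34. Fzd8 and Ror2, a receptor of the noncanonical branch, fell below the filter, with at most 1 and 3 counts in any library.

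Neither Ctnnb1 nor any tested gene of the Dishevelled family or the destruction complex was called between the arms without the block. Ctnnb1, which encodes β-catenin, was the most abundant member, at 1172, 964 and 1164 CPM in shDap5 inputs, against 1183, 1019 and 1188 CPM in NSi inputs. Its log2 change was -0.04 (SE 0.17) in input, 0.12 (SE 0.17) in light and -0.08 (SE 0.17) in heavy fractions. Of the destruction complex, Apc, Axin1 and Gsk3b had log2 changes of -0.12 to 0.31 with SEs of 0.15 to 0.34, and none was called. Axin2, a feedback inhibitor and widely used readout of canonical signalling, was at or near 0 in both arms: it reached 6 counts at most, and stood at 0.0788, 0 and 0 CPM in shDap5 inputs, against 0.0156, 0.0482 and 0.0312 CPM in NSi inputs. At such counts the arms could not be compared. The Dishevelled genes Dvl1, Dvl2 and Dvl3 were not called. Dvl2 in heavy fractions stood at 68.4, 59.4 and 75.1 CPM in shDap5, against 89.8, 82.0 and 85.5 CPM in NSi (log2 -0.34, SE 0.13, edgeR adjusted p = 0.179; adjusted p = 0.028 with the block). Dvl3 had log2 changes of 0.60 (SE 0.20, edgeR adjusted p = 0.116) in light and 0.43 (SE 0.20, adjusted p = 0.286) in heavy fractions, which the block called at adjusted p = 0.00139 and 0.00849.

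The TCF/LEF factors, which bind DNA and recruit β-catenin, did not move together. Tcf7 encodes TCF1 and stood at 2.54, 2.91 and 2.23 CPM in shDap5 inputs, against 6.55, 4.68 and 5.64 CPM in NSi inputs. Its fall was called there (log2 -1.13, SE 0.21, edgeR adjusted p = 0.00297) and not in light (log2 -0.46, SE 0.21, adjusted p = 0.293) or heavy fractions (log2 -0.52, SE 0.21, adjusted p = 0.201; adjusted p = 0.0421 with the block). Tcf7 stood at 5.38, 5.68 and 5.43 CPM in shDap5 light fractions, against 6.87, 7.50 and 8.27 CPM in NSi light fractions. In heavy fractions it stood at 4.81, 6.58 and 6.54 CPM in shDap5, against 6.56, 8.67 and 10.5 CPM in NSi, where the arms overlapped. The level in shDap5 was 45.5% of that in NSi in input, 72.8% in light and 69.6% in heavy fractions.

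Tcf7l2 encodes TCF4, the main TCF of the intestine, and was the member that rose. It stood at 23.8, 25.2 and 25.6 CPM in shDap5 inputs, against 16.8, 15.7 and 17.4 CPM in NSi inputs. In light fractions it stood at 24.6, 24.9 and 21.9 CPM in shDap5, against 17.5, 15.5 and 16.6 CPM in NSi. In heavy fractions it stood at 21.8, 22.1 and 24.0 CPM in shDap5, against 14.3, 12 and 13.5 CPM in NSi. All 9 shDap5 libraries stood above all 9 NSi libraries. By edgeR the log2 change was 0.58 (SE 0.13, adjusted p = 0.0094) in input, 0.53 (SE 0.13, adjusted p = 0.0305) in light and 0.77 (SE 0.13, adjusted p = 0.0024) in heavy fractions.

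Lef1, an activator-type family member, stood at 2.37, 2.47 and 2.29 CPM in shDap5 light fractions, against 0.482, 1.17 and 1.32 CPM in NSi light fractions. The arms were apart there, but the change of 1.27 (SE 0.36) missed the threshold (edgeR adjusted p = 0.0636; adjusted p = 0.0128 with the block). It was 0.45 (SE 0.35, adjusted p = 0.539 by edgeR) in input and 0.67 (SE 0.35, adjusted p = 0.351) in heavy fractions. Tcf7l1, which encodes the repressor-type TCF3, stood at 11.1, 13.4 and 11.4 CPM in shDap5 inputs, against 14.3, 13.6 and 14.0 CPM in NSi inputs, with a log2 change of -0.22 (SE 0.19); in light and heavy fractions its changes were 0.28 and 0.23 (SE 0.19 each). Per kilobase, Tcf7l2 held 51.6 ± 2.78% of the summed TCF/LEF level in shDap5 inputs and 35 ± 1.1% in NSi inputs, and Tcf7 held 8.93 ± 0.854% and 19.9 ± 2.20% (SD, n = 3 each). Tcf7l1 led in NSi inputs with 42.2 ± 1.71%, against 35.6 ± 1.48% in shDap5 inputs. In light fractions Tcf7l2 held 35.9 ± 2.35% in shDap5 and 30.1 ± 4.67% in NSi, and the arms overlapped. Tcf7 held 14.0 ± 0.168% and 23.0 ± 0.568% there. In heavy fractions Tcf7l2 held 28.3 ± 2.97% in shDap5 and 20.1 ± 4.84% in NSi, and Tcf7 held 12.5 ± 0.952% and 21.2 ± 1.29%. These shares use the same counts as the changes above and were not tested.

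**Figure D3:**
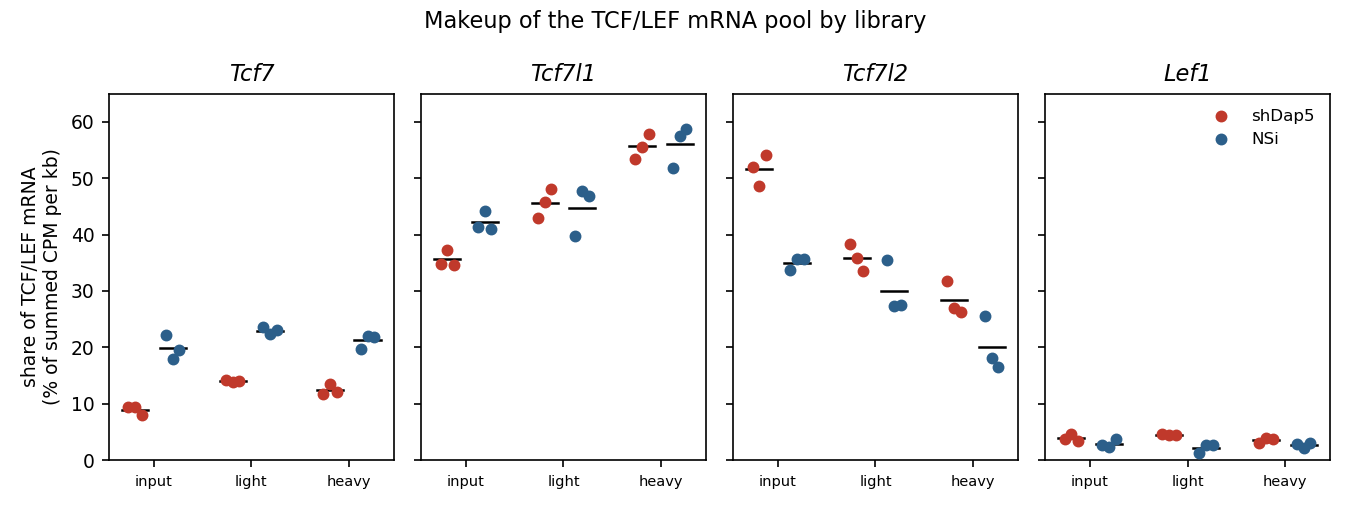
Share of each TCF/LEF factor in the family's summed CPM per kb, in percent, by gradient fraction; points are the 3 libraries of a group (shDap5 left in red, NSi right in blue) and bars the means. Tcf7 shares are lower in every shDap5 library of each fraction, and in inputs the Tcf7l2 share is 51.6% in shDap5 and 35% in NSi.

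The inhibitors were not called. Sfrp1, a secreted decoy that binds Wnt proteins, stood at 97.1, 108 and 102 CPM in shDap5 inputs, against 73.0, 69.6 and 77.1 CPM in NSi inputs. The arms did not overlap in input or in light fractions. The log2 change was 0.48 (SE 0.20, edgeR adjusted p = 0.186) in input, 0.52 (SE 0.20, adjusted p = 0.197) in light and 0.47 (SE 0.20, adjusted p = 0.239) in heavy fractions. With the block it was called in all 3 (adjusted p = 0.0077, 0.00939 and 0.0179). Znrf3 and Rnf43, ubiquitin ligases that remove Frizzled from the surface, had log2 changes of -0.33 to 0.14 with SEs of 0.20 to 0.22. Dkk3, a Dickkopf family protein, was below the filter with at most 4 counts.

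Whether the gradient fractions changed beyond input was tested as a difference of changes. In that comparison 0 of 31 members and 0% of all genes were called by edgeR, heavy or light relative to input and heavy relative to light, and DESeq2 called 0 members too. At an unadjusted edgeR p under 0.05, 295, 320 and 181 genes passed in heavy and light relative to input and in heavy relative to light. These were 1.96%, 2.12% and 1.2% of all genes. Of the 31 members 0, 1 (3.23%) and 0 passed. That 1 was Tcf7, whose fall was smaller in light fractions than in input by 0.68 (SE 0.30, unadjusted p = 0.0358, edgeR adjusted p = 1), and by 0.61 (SE 0.30) in heavy fractions. Next were Fzd1 in light relative to input (0.75, SE 0.38), Tcf7l1 in heavy relative to input (0.46, SE 0.27), and Dvl2 (-0.34, SE 0.19) and Wnt11 (-0.96, SE 0.60) in heavy relative to light. Light and heavy libraries of the same number deviated together, and with these blocked within an arm the median SE of the members in heavy relative to light was 0.20, against 0.30 without the block. With that block too, edgeR called 0 members and 0 genes. At an unadjusted p under 0.05, 1 of 31 members passed, Dvl2 at -0.35 (SE 0.16, unadjusted p = 0.0473), as did 488 of 15072 genes. The comparisons share libraries, so their values are not independent of each other.

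In control cells the members called between heavy and light fractions were all higher in heavy. A smaller share of members than of all genes differed. At an unadjusted edgeR p under 0.05, 38.7% of the 31 tested members passed, against 59% of all genes. Between NSi heavy and NSi light fractions 11 of 31 tested members were higher in heavy and 0 lower, where 27% of all genes were higher and 25.6% lower (52.6% in all). Libraries did not overlap for 12 members above and 1 below, against 27.6% and 27.9% of all genes (55.5%). The median log2 change was 0.19 for the members and -0.03 for all genes. Ctnnb1 stood at 1638, 1241 and 1140 CPM in NSi heavy fractions, against 482, 363 and 396 CPM in NSi light fractions (log2 1.70, SE 0.18, edgeR adjusted p = 9.82e-07), and Dvl2 at 89.8, 82.0 and 85.5 CPM, against 27.7, 35.8 and 34.9 CPM (log2 1.39, SE 0.13, adjusted p = 5.47e-07). Both sets were well apart. Among the transducers 3 of 4 were higher in heavy, with Dvl3 at 0.76 (SE 0.20), and Dvl1 was not called (log2 -0.22, SE 0.19). Of the receptors Fzd7 (log2 1.25, SE 0.28), Fzd2 (1.15, SE 0.16) and Lrp5 (0.83, SE 0.28) were higher in heavy, and the other 6 tested were not called. Sfrp1 (0.83, SE 0.20), Wnt7a (0.77, SE 0.26), Tcf7l1 (0.62, SE 0.19), Axin1 (0.44, SE 0.15) and Wnt11 (1.12, SE 0.39) completed the 11, with edgeR adjusted p of 0.0024 to 0.0222. Wnt11 overlapped between NSi heavy and NSi light libraries. The calls of Axin1, Lrp5, Tcf7l1, Wnt7a and Wnt11 were lost without single libraries: NSi light 1 for Axin1, NSi heavy 2 or NSi light 1 for Lrp5, NSi heavy 3 or NSi light 1 for Tcf7l1, NSi heavy 2 or NSi light 3 for Wnt7a, and NSi heavy 1 or 2 or NSi light 2 or 3 for Wnt11 (edgeR adjusted p of 0.0612 to 0.0922). Tcf7l2 lay the other way at -0.31 (SE 0.13, edgeR adjusted p = 0.05, just outside the threshold; adjusted p = 0.0189 with light and heavy libraries blocked within an arm; also called by DESeq2 and with median-ratio scaling). That block kept the 11 calls above. With only the NSi heavy and NSi light libraries in the fit, Axin1, Tcf7l1 and Wnt11 were not called. Without the filter on low counts Axin1 was not called.

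**Figure D4:**
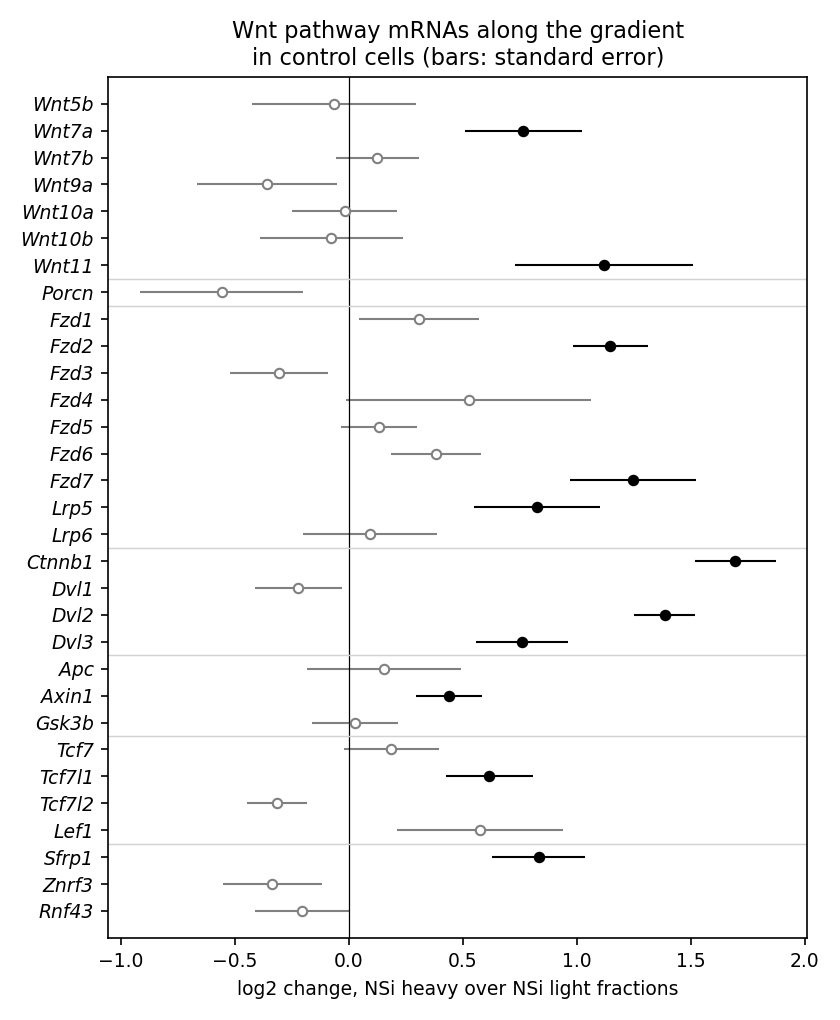
Log2 change of the 31 tested members between NSi heavy and NSi light fractions, grouped by role from ligands at the top to inhibitors at the bottom; bars are standard errors and filled points have an edgeR adjusted p under 0.05. The 11 filled points all lie to the right of 0, led by Ctnnb1 at 1.70 and Dvl2 at 1.39.

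Of 73 further genes of the pathway 48 were tested. In input 1 was higher and 4 were lower, in light fractions 1 higher and 2 lower, and in heavy fractions 1 higher and 1 lower, where 6.95%, 3.47% and 3.95% of all genes were called. Gpc4, a glypican that presents Wnt and other ligands at the cell surface, stood at 8.79, 9.77 and 9.15 CPM in shDap5 inputs, against 27.0, 29.2 and 28.2 CPM in NSi inputs, and fell in all 3 fractions (log2 -1.61, -1.14 and -1.27 in input, light and heavy, SE 0.21 to 0.22, edgeR adjusted p = 0.000194, 0.00722 and 0.0024). Amer1, a scaffold of the destruction complex, rose in all 3, at 49.2, 59.8 and 50.9 CPM in shDap5 inputs, against 31.1, 30.2 and 33.9 CPM in NSi inputs (log2 0.75, 0.87 and 1.05, SE 0.18 each, edgeR adjusted p = 0.0155, 0.0126 and 0.00287). Rspo3, an R-spondin that enhances Wnt signals, fell in input (log2 -1.76, SE 0.36, edgeR adjusted p = 0.00472) and light fractions (log2 -1.41, SE 0.35, adjusted p = 0.034). Vangl2 and Prickle1, core genes of planar polarity, fell in input (log2 -1.08 and -1.48, SE 0.25 and 0.36, edgeR adjusted p = 0.0121 and 0.0157); the block called them in light and heavy fractions too. The input calls were lost without shDap5 input 1 or 3 for Vangl2, without any of these or NSi input 1 or 3 for Prickle1, and without NSi input 1 or 2 for Amer1 (edgeR adjusted p up to 0.0795, 0.0939 and 0.0766). The light calls were lost without shDap5 light 2 or NSi light 1 for Amer1, without NSi light 2 for Gpc4, and without any 1 library but NSi light 1 for Rspo3 (adjusted p up to 0.0712, 0.0523 and 0.138).

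Of 22 genes reported as β-catenin targets in many tissues, 5 of which are also members, 14 were tested. In input 0 rose and 2 fell, Tcf7 and Tnfrsf19, against 3.01% and 3.94% of all genes. In light and heavy fractions 0 were called, against 3.47% and 3.95% of all genes. At an unadjusted p under 0.05 the counts were 5, 5 and 3 of 14, where 19.5%, 16.1% and 17.2% of all genes passed. Tnfrsf19, a receptor of the tumour necrosis factor family, stood at 1.14, 3.67 and 0.750 CPM in shDap5 inputs, against 10.5, 7.70 and 9.19 CPM in NSi inputs (log2 -2.30, SE 0.43, edgeR adjusted p = 0.00288). Without shDap5 input 2 its log2 change was -3.25, and with the block it was called in heavy fractions (edgeR adjusted p = 0.0492). The median log2 change of the 14 was 0.07 in input, 0.11 in light and -0.09 in heavy fractions. All 6 epithelial markers had positive log2 changes in input, light and heavy fractions, where 8481, 7270 and 7774 of 15072 genes did. Of the 6, 1 was called in input (Epcam, log2 0.95, SE 0.25, edgeR adjusted p = 0.0237), 2 in light and 0 in heavy fractions. Of all genes 3.01%, 1.83% and 2.03% were called higher. All shDap5 libraries lay above all NSi libraries for 5 markers in input, 5 in light and 0 in heavy fractions. Of the 3 tested macrophage markers Csf1r rose in input (log2 2.21, SE 0.27, edgeR adjusted p = 6.53e-05), light (log2 1.66, adjusted p = 0.00211) and heavy fractions (log2 1.60, adjusted p = 0.00204), and Lyz2 fell in input (log2 -3.00, SE 0.66, adjusted p = 0.00899). Ptprc and Adgre1, which define blood cells and macrophages, were too low to test and reached at most 0.499 and 0.33 CPM in any library. The part of these markers in the differences of the Wnt genes was not tested. In bulk RNA, fewer cells of a kind and less RNA per cell cannot be told apart.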

How the data were processed

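The deposited values are whole-number counts for each gene symbol, which the authors left unnormalized. The submitters' processing notes name Bowtie and the build mm9. Libraries came from a stranded kit, per the labels' protocols. The counter, the annotation and whether strand was used: not given in the sources used here. Reads shared with overlapping or similar genes may have been split or dropped. Of the symbols 27 were written as dates; none is a member. The labels do not state separate cultures, so the p-values reflect variation among libraries that could be technical. Between replicates the chi-square of counts over its degrees of freedom was 9.57 or more, above sampling noise, so none was counted as a duplicate.

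The test was edgeR's quasi-likelihood F test (edgeR 4.0.16, R 4.3.3; robust, TMM, filterByExpr with minimum count 10 and minimum total 15) on all 18 libraries with 1 mean per group (12 residual degrees of freedom). P-values were adjusted by Benjamini-Hochberg over 15072 genes; a gene is called, and said to rise or fall, at an adjusted p under 0.05, and the SE is the change divided by the square root of F. DESeq2 1.42.0 was an alternative. Levels per kb divide CPM by the merged exon length of GENCODE M21 (build GRCm38), another build than the authors'. Across 10174 genes, deviations of same-numbered shDap5 and NSi libraries correlated at 0.136 to 0.829 within a fraction (9 of 9 pairs over 0.1). The labels state no pairing, so pairing by number was inferred from these correlations. A block within fraction is printed where it changes a call. Correlations of input with gradient libraries ranged from -0.322 to 0.477, and these were not paired. Light and heavy libraries correlated at 0.350 to 0.753 (12 pairs), so a block of these within an arm was added after seeing the data (8 residual degrees of freedom). Members and lists were chosen with earlier results of these data known. Values per library are given for members called between arms, those with the smallest p-values and fixed points of the pathway.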

Additional observations from a re-analysis of the deposited data

How the results depend on the processing

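The falls of Wnt10b, Wnt11, Fzd1 and Tcf7 in input stayed called in all leave-outs, as did the 4 calls in heavy fractions. With the block within fraction, 3330, 2431 and 2765 of 15072 genes were called between the arms in input, light and heavy fractions. Of the 31 tested members it called 6, 9 and 9. A plain replicate block called 1798, 1013 and 1122 of the 15072 genes, and 7 members in light. With only the libraries compared, 2218 of 14600, 219 of 13878 and 56 of 13248 tested genes were called, and 7, 1 and 0 members. DESeq2 called 995 genes in light and 1050 in heavy fractions, and 5 members in light. Without the filter on low counts Tcf7l2 was not called in input (adjusted p = 0.0951) or light (adjusted p = 0.175) by edgeR. Leaving out 1 library gave 486 (without shDap5 input 1) to 1712 (without shDap5 input 2) genes in input, 218 (without NSi light 2) to 393 in light, 252 (without NSi heavy 2) to 682 in heavy fractions and 6768 to 8089 in NSi heavy against light; members numbered 4 to 5, 1 to 2, 4 to 4 and 8 to 11. Relative to input, 9 genes in heavy and 8 in light were called without shDap5 input 2, otherwise 0 at the lowest, and 0 members. The cause was not tested.

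Signs that reversed were those of changes not called with all libraries, and some turned on 1 library. The lowest Lrp5 values came without shDap5 light 2 in light and without shDap5 heavy 2 in heavy fractions. The lowest Porcn and Wnt9a values in input came without shDap5 input 2. Dvl2 in light was 0.0102 with median-ratio scaling, 0.0164 without the filter, 0.00566 with the block within fraction and 0.0103 with DESeq2, and ran from -0.108 to 0.0806 without single libraries. Over leave-outs Ctnnb1 ran from -0.107 to 0.0497 in input and -0.183 to 0.0906 in heavy fractions, Porcn from -0.411 to 0.397 and Wnt9a from -0.347 to 0.409 in input, Lrp5 from -0.0539 to 0.584 in light and -0.110 to 0.366 in heavy, and Lrp6 from -0.427 to 0.0092 in light and -0.567 to 0.182 in heavy fractions. The block within fraction was not run for NSi heavy against light. Depth limits Axin2, Wnt4, Wnt5a, Wnt6, Fzd8, Dkk3 and Ror2, and Wnt11 rests on few counts.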
